A study of Homo sapiens with 12 samples.

Results

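Acute-phase and complement genes were followed in LM2 cells, which derive from the MDA-MB-231 line of human breast cancer and were picked for their growth in lung. The 8 genes were SAA1, SAA2, SAA2-SAA4, LCN2, C3, CFB, C1R and C1S, taken by symbol from a table of 26006 gene rows. They were selected on expression differences already seen between the groups of these libraries, so their levels are given as a description and without a test. A row of exactly that name was present for 6 of the 8. The other 2, SAA2 and SAA2-SAA4, were found in a single merged row that also carries SAA4, so 7 rows hold the 8 genes. CFB had 7 rows, of which 6 were at 0 in every library, and the remaining one was used. All 7 rows had a mean of at least 1 FPKM, the filter used for testing, over the 12 libraries.

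Cells transduced with a short hairpin RNA (shRNA) against EZH2 were set against cells transduced with a scramble shRNA. Cells transfected with a small interfering RNA (siRNA) against ZRANB1 were set against cells transfected with a scramble siRNA. Each of the 4 groups had 3 libraries of bulk RNA. All were LM2 cells with no further allele or treatment named, and the labels name neither the number of hairpin or siRNA sequences nor the time of harvest. Expression was given as FPKM, a fragment count corrected for the size of the transcript and of the library, and the depth is unknown. The 3 values of a group are sorted as text strings in every row where all differ, so no value can be tied to a library, while means, SDs and ranges are not affected. The labels name no separate cultures for libraries of one group, and p-values then measure only how far these samples spread, which may be a technical spread.

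EZH2, the histone methyltransferase targeted by the hairpin, had 16.1, 16.1 and 17.3 FPKM with the EZH2 shRNA, against 34.2, 35.6 and 36.3 FPKM with the scramble shRNA (log2 difference -1.06, limma adjusted p = 1.34e-05). ZRANB1, a deubiquitinase, had 9.05, 9.49 and 11.5 FPKM in the libraries labelled ZRANB1 siRNA, against 10.5, 11.5 and 12.1 FPKM with the scramble siRNA. These ranges overlapped (log2 difference -0.17, limma adjusted p = 0.349), so the label of that group was not borne out at the RNA level, and the group is called by its label throughout. EZH2 itself fell in that group, to 30.4 ± 2.08 FPKM against 48.6 ± 2.1 FPKM in the scramble siRNA controls (SD, n = 3 each; limma adjusted p = 5.43e-05). All 8 markers of the basal-like line, VIM and CD44 among them, were at or above 1 FPKM in each group. The hepatocyte markers APOA2, APOB and TTR were listed at 0 in all 4 group means, and ALB was at 0.0579 FPKM at most. The summed group means of the 10 hepatocyte markers were 1.81 FPKM with the EZH2 shRNA, 1.91 FPKM with the scramble shRNA, 0.856 FPKM with the label ZRANB1 siRNA and 0.404 FPKM with the scramble siRNA. CYP2E1 held 1.76, 1.78, 0.679 and 0.118 FPKM of these sums. APOA1 ran the other way, at 0.0494, 0, 0.107 and 0.243 FPKM, and was the larger part of the scramble siRNA sum. The 9 macrophage and blood markers summed to 40.6, 40.5, 44.6 and 43.3 FPKM in the same order of groups. CD68 made up most of it, at 35.6, 34.4, 41.7 and 40.2 FPKM, and HBB stood at 1.02, 0.997, 1.29 and 2.24 FPKM. PTPRC was at 0.0210 FPKM at most and CD163 at 0.0125 FPKM at most, while CD14 was at 2.87, 3.90, 0.867 and 0.243 FPKM in the same order of groups. Of the 8 fibroblast markers only COL1A1 reached 1 FPKM in a group, at 19.3, 24.6, 17.0 and 8.14 FPKM in that order. CYP2E1, CD14 and COL1A1 thus had the same order of group means as the acute-phase genes below, while APOA1, CD68 and HBB did not. CSF1R had that order too, at 0.713, 0.865, 0.400 and 0.290 FPKM in the same order of groups. So did the basal-like marker CD44, at 261, 264, 206 and 118 FPKM, but no other basal-like marker. KRT18 (247, 272, 317 and 353 FPKM), KRT8 (184, 188, 221 and 267 FPKM) and CAV1 (226, 273, 250 and 333 FPKM) were highest with the scramble siRNA. AXL was also highest there, VIM and MSN were lowest there, and EGFR was lowest with the scramble shRNA. The sum of the 8 luminal markers ran the other way between the siRNA and shRNA groups. It was 17.6 FPKM with the EZH2 shRNA, 19.8 FPKM with the scramble shRNA, 42.6 FPKM with the label ZRANB1 siRNA and 62.1 FPKM with the scramble siRNA. KRT19 led these markers, at 7.07, 7.53, 28.6 and 47.4 FPKM, and EPCAM and ERBB3 were also higher in the siRNA groups. GATA3 was not, at 4.87, 6.74, 4.80 and 3.70 FPKM, which is the order of the acute-phase genes. ESR1, PGR, FOXA1 and CDH1 were at 0.520 FPKM or below in every group mean. The part of these markers in the results was not tested. In bulk RNA, fewer cells of a type and less RNA per cell cannot be told apart.

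Serum amyloid A proteins and lipocalin 2 belong to the acute-phase response, in which liver and inflamed epithelia secrete defence proteins after interleukin 1 and interleukin 6 signals. NF-kB, C/EBP family factors and STAT3 are the best-known transcription factors of this response. Complement is a cascade of plasma proteases and binding proteins that coats targets with fragments of C3. In the classical pathway the proteases C1r and C1s are carried by C1q, and C1s cleaves C4 and C2. In the alternative pathway factor B provides the protease that amplifies C3 cleavage. Tumour cells of epithelial origin can express several of these genes themselves.

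The coding sequences of SAA1 and SAA2 are shown because their likeness limits what the table can say about each gene. Both code over 366 bases in the GENCODE release 29 transcripts, and they differ at 11 of them (97.0% identity), whereas SAA1 and SAA4 are 69.0% identical over 390 aligned positions. In the following 120 bases, coding bases 204 to 323 counted from the start codon, capitals mark the 10 positions that differ between both genes on chromosome 11.
SAA1: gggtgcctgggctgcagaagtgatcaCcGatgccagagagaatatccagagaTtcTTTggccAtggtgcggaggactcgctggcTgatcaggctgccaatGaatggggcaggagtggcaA
SAA2: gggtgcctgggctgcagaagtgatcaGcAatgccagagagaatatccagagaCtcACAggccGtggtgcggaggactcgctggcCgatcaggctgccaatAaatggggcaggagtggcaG
Of all 50-base windows of the chosen SAA1 transcript, 34.1% occur without a mismatch in a transcript of SAA2, SAA4 or SAA2-SAA4. For the SAA2 transcript 47.9% of windows occur in one of the other SAA genes. Fragments from the shared SAA1 windows can be assigned to either row. The SAA2 share also counts windows found only in SAA4 or SAA2-SAA4, which stand in the same merged row. It can therefore overstate the overlap between both rows. How the counting treated shared fragments is not given in the sources used here. The level of each SAA row is therefore uncertain, and the sum of both rows is given beside them.

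With the EZH2 shRNA, the SAA rows and LCN2 stood at about the same fraction of the scramble shRNA level, while the 4 complement genes stood close to it. SAA1, which encodes the main acute-phase form of serum amyloid A, had 124, 126 and 142 FPKM with the EZH2 shRNA, against 401, 428 and 445 FPKM with the scramble shRNA. All values with the EZH2 shRNA lay below all values of its control. The mean was 131 ± 9.71 FPKM against 425 ± 21.9 FPKM (SD, n = 3 each), 30.7% of the control level. In the libraries labelled ZRANB1 siRNA SAA1 had 65.3, 66.6 and 82.96 FPKM, against 3.71, 4.38 and 5.64 FPKM with the scramble siRNA. These ranges were far apart, and the ratio of means was 15.6. By group mean SAA1 ranked 605 among the 11929 tested genes with the EZH2 shRNA, 170 with the scramble shRNA, 1252 in libraries labelled ZRANB1 siRNA and 8997 with the scramble siRNA.

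The merged row of SAA2, SAA2-SAA4 and SAA4 had the same order of groups. SAA2 encodes the other acute-phase form, SAA4 a form expressed constitutively in liver, and SAA2-SAA4 is a read-through transcript of both genes. The row had 28.4, 29.4 and 32.9 FPKM with the EZH2 shRNA, against 68.8, 76.0 and 90.0 FPKM with the scramble shRNA, a ratio of 0.386. It had 11.8, 11.9 and 15.9 FPKM with the label ZRANB1 siRNA, against 1.10, 1.43 and 2.23 FPKM with the scramble siRNA, a ratio of 8.34. No group overlapped the next in this row or in SAA1. SAA1 exceeded the merged row 4.32 times with the EZH2 shRNA, 5.42 times with the scramble shRNA, 5.42 times with the label ZRANB1 siRNA and 2.89 times with the scramble siRNA, per length and subject to the shared fragments. Summed over both rows, the level was 161 FPKM with the EZH2 shRNA against 503 FPKM with the scramble shRNA. It was 84.8 FPKM with the label ZRANB1 siRNA against 6.16 FPKM with the scramble siRNA. The log2 difference of the sum was -1.64 in the first pair and 3.60 in the second, on the scale of log2(FPKM + 1), which understates differences of low values. SAA3P, the SAA pseudogene of the same cluster, was listed at 0 in all 12 libraries.

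LCN2 encodes lipocalin 2, a secreted protein that binds bacterial siderophores and so withholds iron. It was low throughout, with 1.77, 2.06 and 2.44 FPKM with the EZH2 shRNA, against 6.27, 6.75 and 6.99 FPKM with the scramble shRNA. The mean with the EZH2 shRNA was 31.4% of the control level, next to 30.7% for SAA1, and the ranges did not overlap. In the libraries labelled ZRANB1 siRNA LCN2 had 0.918, 1.14 and 1.28 FPKM. With the scramble siRNA 2 of the libraries were listed at 0 and the other at 0.226 FPKM, so no ratio is given. Relative to the scramble shRNA mean, the libraries labelled ZRANB1 siRNA stood at 16.7% for LCN2, 16.9% for SAA1 and 16.9% for the merged SAA row.

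**Figure D1:**
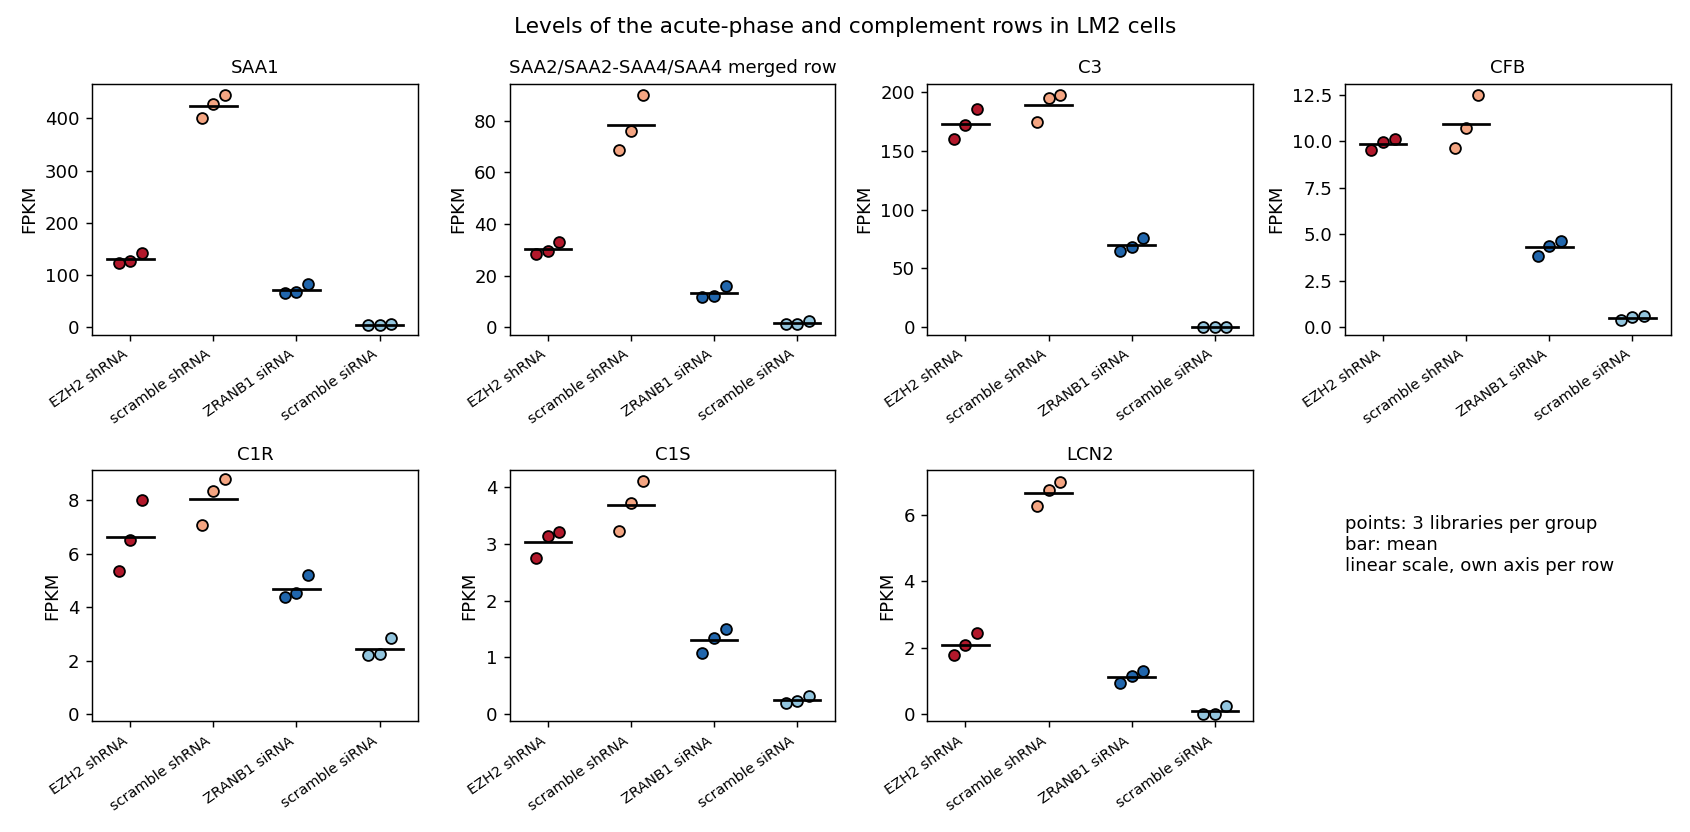
FPKM of the 7 rows that hold the acute-phase and complement genes, with 1 point per library (drawn in order of size), a bar at the mean of 3, and a linear axis of its own for each row. SAA1, the merged SAA row and LCN2 are lower with the EZH2 shRNA than with the scramble shRNA in all 3 values, whereas C3, CFB and C1R overlap there, and every row is higher with the label ZRANB1 siRNA than with the scramble siRNA.

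C3, the protein on which all complement pathways converge, had the highest level per length of the 4 complement genes in every group but the scramble siRNA, where C1R and CFB stood above it. It had 160, 172 and 186 FPKM with the EZH2 shRNA, against 174, 195 and 197 FPKM with the scramble shRNA, and these ranges overlapped. The mean was 172 ± 12.9 FPKM against 189 ± 12.6 FPKM (SD, n = 3 each), 91.3% of the control level. In the libraries labelled ZRANB1 siRNA C3 had 64.7, 68.5 and 75.7 FPKM, against 0.212, 0.246 and 0.514 FPKM with the scramble siRNA. This was the largest ratio among the 6 rows with all values above 0, at 215, although its denominator is low and of unknown depth. C3 ranked 407 of 11929 with the EZH2 shRNA, 397 with the scramble shRNA, 1302 with the label ZRANB1 siRNA and 11782 with the scramble siRNA.

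CFB encodes factor B, the protease of the alternative pathway. It had 9.53, 9.97 and 10.1 FPKM with the EZH2 shRNA, against 9.63, 10.7 and 12.5 FPKM with the scramble shRNA, with overlapping ranges and a ratio of means of 0.902. In the libraries labelled ZRANB1 siRNA it had 3.82, 4.39 and 4.66 FPKM, against 0.390, 0.550 and 0.587 FPKM with the scramble siRNA, a ratio of 8.43. C3 exceeded CFB 17.4 times per length with the EZH2 shRNA, 17.2 times with the scramble shRNA and 16.2 times with the label ZRANB1 siRNA, but stood at 0.637 times CFB with the scramble siRNA. The levels of C3 and CFB thus kept nearly the same proportion in 3 of the groups and not in the scramble siRNA group.

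C1R and C1S encode the proteases of the first classical component. C1R had 5.34, 6.50 and 8.003 FPKM with the EZH2 shRNA, against 7.06, 8.33 and 8.79 FPKM with the scramble shRNA, and the ranges overlapped at 82.1% of the control mean. It had 4.37, 4.52 and 5.198 FPKM with the label ZRANB1 siRNA, against 2.19, 2.25 and 2.84 FPKM with the scramble siRNA, a ratio of 1.93 that was the smallest of the 7 rows. C1S had 2.75, 3.14 and 3.21 FPKM with the EZH2 shRNA, against 3.22, 3.72 and 4.10 FPKM with the scramble shRNA, so that its ranges were only just apart at 82.5% of the control mean. It had 1.07, 1.33 and 1.49 FPKM with the label ZRANB1 siRNA, against 0.193, 0.226 and 0.315 FPKM with the scramble siRNA, a ratio of 5.31. C1R exceeded C1S 2.18 times with the EZH2 shRNA and 2.19 times with the scramble shRNA, 3.61 times with the label ZRANB1 siRNA and 9.93 times with the scramble siRNA. C1R shares sequence with its neighbour C1RL, and how the counting handled this is not given in the sources used here.

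Across the 7 rows, all 3 values with the EZH2 shRNA lay below the scramble shRNA in 4 rows, a pattern that 11.6% of tested genes had. All 7 rows were higher in each library labelled ZRANB1 siRNA than in any with the scramble siRNA, as were 18.5% of tested genes. The rows were picked with these differences known, so nothing is read from these shares. The order of group means was the same in all 7 rows, scramble shRNA above EZH2 shRNA, then the label ZRANB1 siRNA, then scramble siRNA. The neighbours in this order that did not differ beyond their ranges were the EZH2 shRNA and the scramble shRNA for C3, CFB and C1R. With a pseudocount of 0.1 in place of 1, the log2 difference between the label ZRANB1 siRNA and the scramble siRNA was 2.86 in place of 1.81 for CFB, 2.03 in place of 0.88 for C1S and 3.02 in place of 0.98 for LCN2.

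The scramble siRNA group was compared with the scramble shRNA group because both serve as controls. The scramble siRNA stood far below the scramble shRNA in all 7 rows, without overlap, a pattern that 29.2% of tested genes had. Its mean was 1.08% of the scramble shRNA mean for SAA1, 2.03% for the merged SAA row, 0.172% for C3, 4.65% for CFB, 30.2% for C1R and 6.65% for C1S. The log2 difference ran from -7.17 for C3 to -1.40 for C1R, and with a pseudocount of 0.1 it was -3.46 in place of -1.91 for C1S and -5.51 in place of -2.84 for LCN2. Delivery method differs between both controls. Scramble sequence, time of harvest and batch may differ too and are not given by the labels, so these cannot be told apart. This comparison shares its scramble siRNA libraries with the ZRANB1 comparison and its scramble shRNA libraries with the EZH2 comparison.

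**Figure D2:**
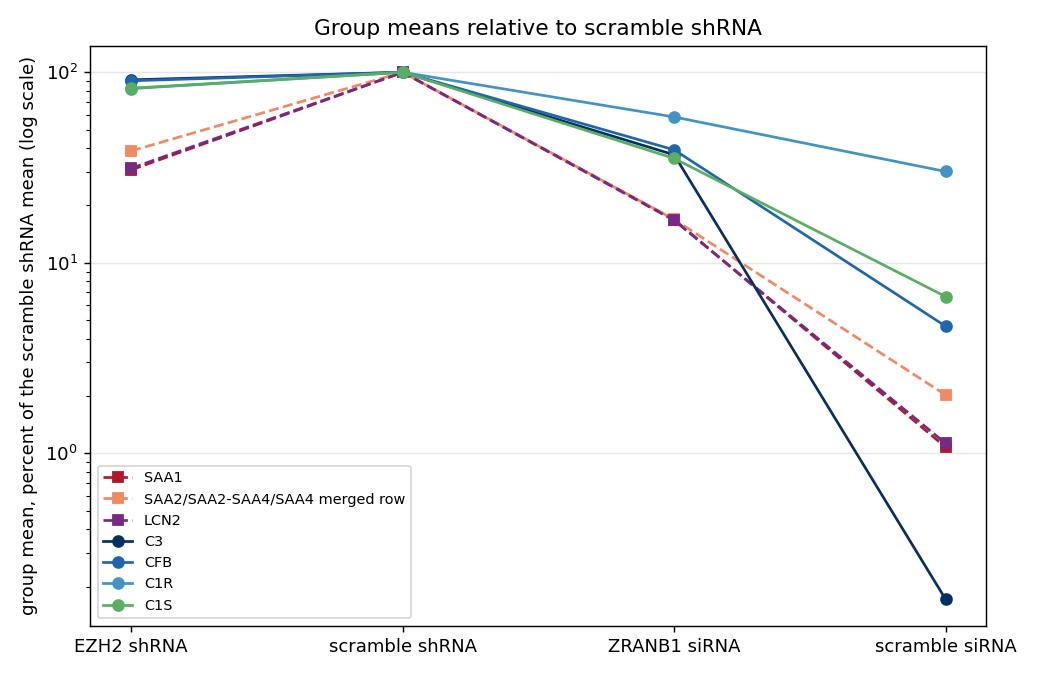
Group means of the 7 rows as percent of the scramble shRNA mean, on a log axis, with squares and dashed lines for the SAA rows and LCN2, and circles for the complement genes. The squares sit together near 31% to 39% with the EZH2 shRNA and near 17% with the label ZRANB1 siRNA, while the circles sit between 82% and 91% with the EZH2 shRNA; the LCN2 mean with the scramble siRNA rests on 1 library above 0.

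Other genes of these pathways were taken from fixed lists, and 46 of the 129 with a row and outside the 8 genes passed the filter at a mean of 1 FPKM. The lists were chosen with earlier results of these data known, so their counts and the shares beside them are a description. A gene was called at a limma adjusted p below 0.05. With the EZH2 shRNA, 5 of the 46 rose and 9 fell, beside 3.39% and 3.03% of all tested genes. With the label ZRANB1 siRNA, 23 rose and 2 fell, beside 10.1% and 6.5% of all tested genes. Their median log2 difference was -0.064 with the EZH2 shRNA and 0.36 with the label ZRANB1 siRNA, beside -0.014 and -0.017 over all tested genes. Between the controls, 10 were higher and 26 lower with the scramble siRNA, beside 25.5% and 25.1% of all tested genes. Their median log2 difference between the controls was -0.53. The difference in the label ZRANB1 siRNA pair minus that in the EZH2 pair was taken as a contrast of the same fit. It was called higher in 19 of the 46 and lower in 0 (24 and 3 at an unadjusted limma p below 0.05), beside 6.91% and 3.58% of all tested genes. Each pair has its own control, so this contrast includes the difference between the controls and cannot be read as a difference between the targets. The EZH2 count of 14 was 5 with the 6 values of that comparison alone, and 9 when either of 2 scramble shRNA values was left out after a random order. The 5 that rose were 1 with the 6 values alone, and 1 to 5 when single values were left out, while the 9 that fell were 4 and 7 to 9. The 2 that fell with the label ZRANB1 siRNA were 4 with no filter, 1 when either of 2 single values was left out and 0 at an adjusted p below 0.01. The 10 that were higher between the controls were 6 when any of 3 single values was left out.

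Among acute-phase proteins, 5 of 6 tested genes outside the 8 were higher with the label ZRANB1 siRNA, beside 10.1% of all tested genes. Their median log2 difference was 0.71. With the EZH2 shRNA 3 of the 6 were lower, beside 3.03% of all tested genes, with a median of -0.30. Between the controls, 5 of the 6 were lower with the scramble siRNA, beside 25.1% of all tested genes, with a median of -0.76. SERPINA1, which encodes the protease inhibitor alpha-1-antitrypsin, had 7.95, 9.08 and 9.48 FPKM with the EZH2 shRNA, against 11.5, 11.9 and 11.996 FPKM with the scramble shRNA. Its log2 difference was -0.38 with an SE of 0.080 and a limma adjusted p of 0.0177, a call that was lost in 6 of the 13 other settings. In the libraries labelled ZRANB1 siRNA SERPINA1 had 3.33, 3.37 and 3.79 FPKM, against 0.254, 0.303 and 0.336 FPKM with the scramble siRNA, a ratio of 11.7 (limma adjusted p = 4.06e-08). The ferritin light chain gene FTL stood at 1708 ± 170 FPKM with the EZH2 shRNA and 2319 ± 175 FPKM with the scramble shRNA, and at 2354 ± 161 FPKM with the label ZRANB1 siRNA and 1512 ± 59.6 FPKM with the scramble siRNA. It fell in the first pair (limma adjusted p = 0.00983) and rose in the second (limma adjusted p = 2.93e-04). The ferritin heavy chain gene FTH1 did the same, with log2 differences of -0.38 and 0.79. Both EZH2 calls of the ferritin genes were lost with the 6 values of that comparison alone, and both genes have pseudogenes, so their levels are uncertain. PTX3, the long pentraxin, had a log2 difference of 0.34 with the EZH2 shRNA (limma adjusted p = 0.0559) and rose with the label ZRANB1 siRNA by 0.59. The metallothionein gene MT2A, one of a family of close paralogs, rose there by 0.80. The copper carrier gene CP, at 1.36 FPKM at most in a group mean, was not called in any comparison. CRP and the fibrinogen genes FGA, FGB and FGG were at 0.0597 FPKM or below in every group mean, as was HP at 0.0348 FPKM or below.

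Among complement components the picture outside C3, CFB, C1R and C1S was one of low levels. Of 24 other components with a row, 9 were listed at 0 in all libraries and only CFD passed the filter. CFD, the protease that activates factor B, had 1.93 ± 0.510 FPKM with the EZH2 shRNA against 2.23 ± 0.256 FPKM in the scramble shRNA controls, and 2.88 ± 1.01 FPKM with the label ZRANB1 siRNA against 3.91 ± 1.00 FPKM with the scramble siRNA (SD, n = 3 each), with no call in either pair. The C1q chain genes C1QA, C1QB and C1QC were listed at 0 in all libraries. C2, the partner of C4 in the classical pathway, was at 0.247 FPKM with the EZH2 shRNA, 0.166 FPKM in the scramble shRNA controls, 0.0760 FPKM with the label ZRANB1 siRNA and 0.0716 FPKM with the scramble siRNA. The merged C4 row was at 0.108 FPKM at most. C5, which starts the terminal pathway, was near the filter at 1.01, 1.17, 0.673 and 0.500 FPKM in the same order of groups and was not tested. Of 13 genes that every cell uses, such as ACTB and TBP, none was at 0 in any library.

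Among complement regulators and receptors, 1 of 9 tested genes was called with the label ZRANB1 siRNA, a share near that of all tested genes (10.1% higher and 6.5% lower). It was the chaperone gene CLU, which fell by 0.48 on the log2 scale (limma adjusted p = 0.0216, between 0.00977 and 0.0887 in the other settings). With the EZH2 shRNA 3 of 9 fell, ITGB2 and C1QBP among them, beside 3.03% of all tested genes. ITGB2, the beta chain of the complement receptors for C3 fragments, fell by 1.04 on the log2 scale with the EZH2 shRNA (limma adjusted p = 0.00374). Its alpha chain partners ITGAM and ITGAX were at 0.0237 FPKM or below in every group mean. C1QBP, a mitochondrial protein that also binds C1q, fell by 0.38 (limma adjusted p = 0.0104, and 0.0958 with the 6 values of that comparison alone). The membrane inhibitors CD46, CD55 and CD59 stood at 31.4 FPKM or above in every group and were called neither with the EZH2 shRNA nor with the label ZRANB1 siRNA. Between the controls, the scramble siRNA had the higher level in 5 of the 9, beside 25.5% of all tested genes. Among them were C4BPB with a log2 difference of 1.10 and CLU with 0.97, which is the opposite direction to that of the 8 genes.

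Among inducers and signal carriers of the acute-phase response, 17 of 29 tested genes rose with the label ZRANB1 siRNA and 1 fell. All tested genes had shares of 10.1% and 6.5% there. The median log2 difference of the 29 was 0.50, beside -0.017 over all tested genes. IL6 stood at 105 ± 9.70 FPKM there, and the scramble siRNA gave 2.15 ± 0.272 FPKM, and IL1B and IL1A rose by 4.42 and 2.13 on the log2 scale. Between the controls, 20 of the 29 were lower and 4 higher with the scramble siRNA, beside 25.1% and 25.5% of all tested genes. The log2 differences between the controls were -6.01 for IL6, -4.77 for IL1B and -2.83 for IL1A. The rises with the label ZRANB1 siRNA thus start from a control far below the scramble shRNA. With the EZH2 shRNA 4 of 29 rose and 3 fell, with a median of -0.0043, beside 3.39% and 3.03% of all tested genes. IL6 had 235 ± 8.50 FPKM there against 202 ± 6.88 FPKM with the scramble shRNA and was not called (limma adjusted p = 0.16), and IL1B rose by 0.50 (limma adjusted p = 0.0158, lost in 5 of 13 other settings). CEBPD, which encodes the transcription factor C/EBP delta, had 30.0, 35.2 and 42.5 FPKM with the EZH2 shRNA, against 56.6, 76.0 and 76.6 FPKM with the scramble shRNA. It was thus at 0.515 of its control there (log2 difference -0.94, SE 0.18, limma adjusted p = 0.0104), with an adjusted p of 0.0464 at most in the other settings. In the libraries labelled ZRANB1 siRNA CEBPD had 19.4, 20.2 and 27.8 FPKM, against 11.7, 14.6 and 16.1 FPKM with the scramble siRNA. That rise (limma adjusted p = 0.0332) was lost in 5 of 13 other settings, and the difference of both effects was called (1.56, limma adjusted p = 0.00203). CEBPB, its paralog, stood at 193 ± 32.8 FPKM with the EZH2 shRNA and 179 ± 29.3 FPKM with the scramble shRNA, which was not called, and rose with the label ZRANB1 siRNA by 0.90. SOCS3, the feedback inhibitor of interleukin 6 signalling, fell in both, by 0.70 with the EZH2 shRNA and by 0.45 with the label ZRANB1 siRNA. STAT3, the signal carrier itself, stood between 34.2 and 36.9 FPKM in all group means and was not called in any comparison, and the receptor subunit gene IL6ST rose by 0.87 with the label ZRANB1 siRNA.

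Of 19 secreted antimicrobial proteins and lipocalin receptors with a row other than LCN2, 9 were listed at 0 and 1 passed the filter. That gene, PI3, encodes the elastase inhibitor elafin. PI3 stood at 7.004 ± 1.44 FPKM with the EZH2 shRNA and 2.82 ± 0.511 FPKM with the scramble shRNA, and rose (log2 difference 1.06, limma adjusted p = 0.00608, and 0.0997 with a pseudocount of 0.1). LCN2 itself was lower in that pair. SLPI, a related inhibitor below the filter, had 1.75, 1.92 and 2.18 FPKM with the EZH2 shRNA, against 0.955, 1.13 and 1.44 FPKM with the scramble shRNA, without overlap. SLC22A17, which encodes a receptor for lipocalin 2, was listed at 0 in all libraries, and the other receptor gene LRP2 was at 0.00861 FPKM at most.

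**Figure D3:**
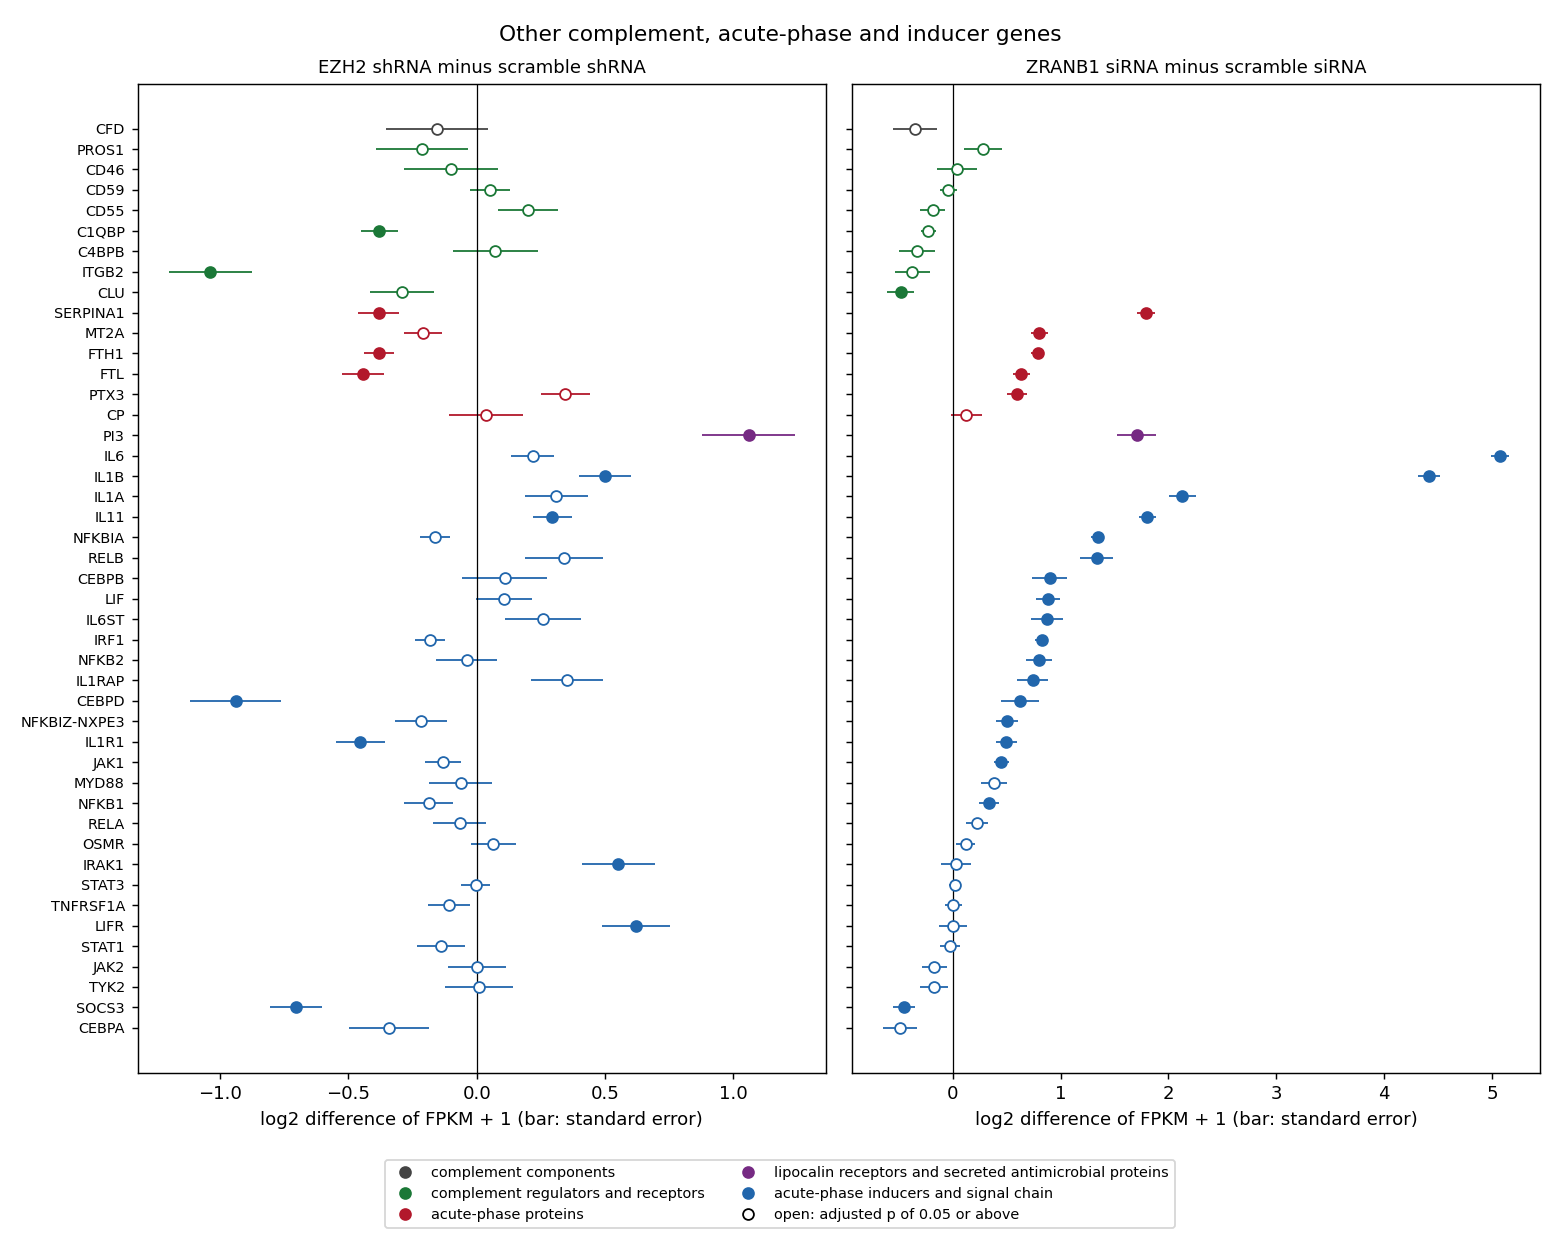
Log2 differences of FPKM + 1 for 45 of the 46 tested genes of the pathway lists other than the 8 genes, with EZH2 shRNA minus scramble shRNA on the left and the label ZRANB1 siRNA minus scramble siRNA on the right; bars are standard errors, and filled points have a limma adjusted p below 0.05. CEBPD, FTL, FTH1 and SERPINA1 lie left of 0 in the first panel and right of 0 in the second, and CD46 and CD59 lie near 0 in the second.

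The genes beside the loci were compared because they were picked by place and not by level. For each of the 5 loci, the 3 nearest genes on each side in the RefSeq gene table of GRCh38.p14 with a row here were taken, 30 in all, of which 19 were tested. With the EZH2 shRNA 1 of 19 fell, TNFSF9 beside C3, by 0.81 on the log2 scale (limma adjusted p = 0.00643), beside 3.03% of all tested genes. The tested neighbours of the SAA cluster, HPS5, GTF2H1 and LDHA, had log2 differences of -0.15, -0.28 and -0.18 there, none of them called, beside -1.70 for SAA1. With the label ZRANB1 siRNA 3 rose and 2 fell, beside 10.1% and 6.5% of all tested genes. CD70 beside C3 rose by 1.04 and the lactate dehydrogenase gene LDHA beside the SAA cluster by 0.53, while LPCAT3, the gene next to C1S, fell by 0.62 (limma adjusted p = 3.36e-05), opposite in direction to C1R and C1S. GPR108, which rose by 0.35, and EMG1, which fell by 0.31, were not called in 7 and 10 of the 13 other settings. The count of 5 was 3 when single values were left out after a random order, in 5 of the 6 cases. Between the controls, 2 of the 19 were higher and 8 lower with the scramble siRNA, beside 25.5% and 25.1% of all tested genes, a total share near the one over all genes. The tested neighbours of LCN2, which are PTGES2, SLC25A25, NAIF1, CIZ1 and DNM1, had log2 differences between -0.18 and 0.12 in both pairs, and none was called.

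**Figure D4:**
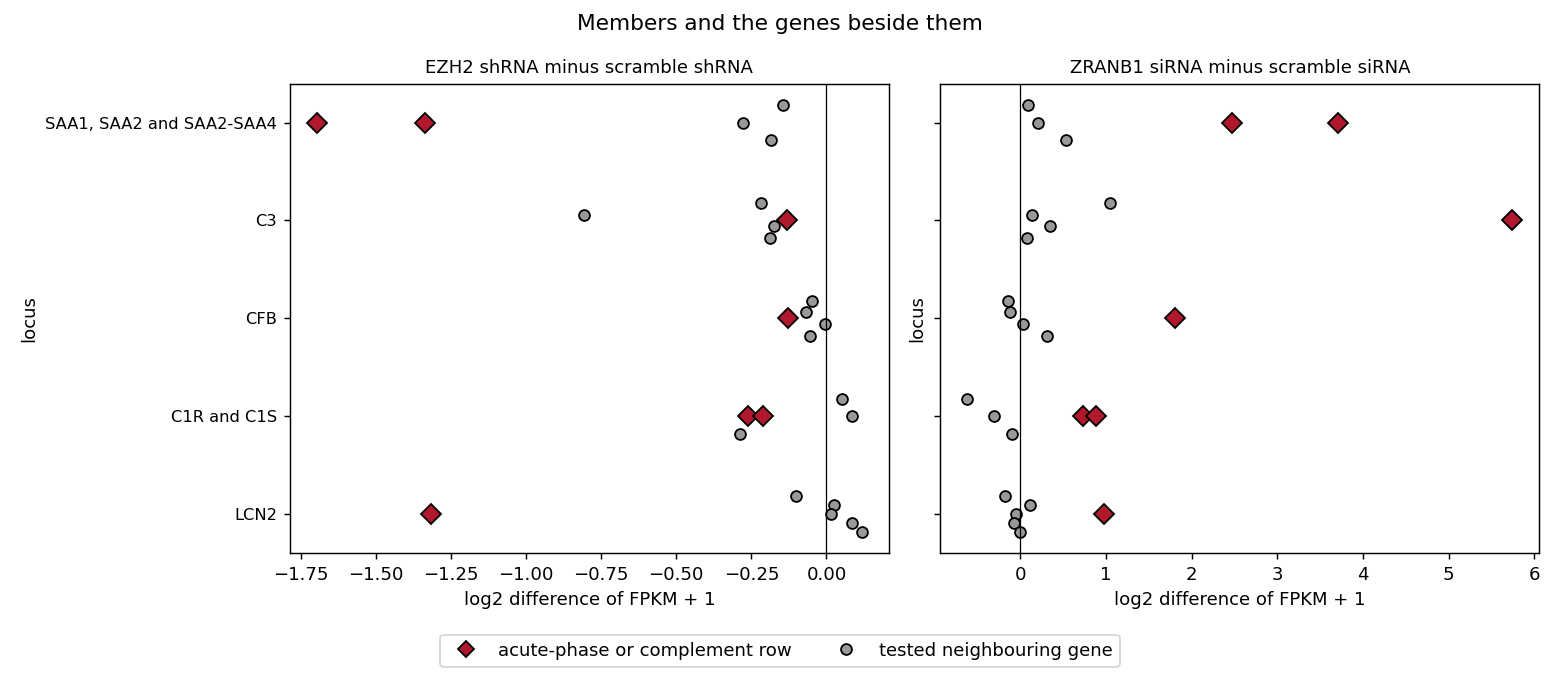
Log2 differences of FPKM + 1 for the acute-phase and complement rows (red diamonds) and for the tested genes on either side of each locus (grey points), with EZH2 shRNA minus scramble shRNA on the left and the label ZRANB1 siRNA minus scramble siRNA on the right. The SAA rows and LCN2 lie at -1.31 or below on the left while their neighbours lie between -0.28 and 0.12, and on the right each diamond lies to the right of 0.

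Promoter sequences in the RefSeq table (GRCh38.p14) were available for CFB, C1R and LCN2, which are 3 of the 8 genes. Those of LCN2 and CFB are shown because LCN2 had the pattern of the SAA rows and CFB that of the complement genes with the EZH2 shRNA. Each is read in the direction of the gene, and capitals mark matches on either strand to 6 motifs fixed with the lists. The motifs were the NF-kB consensus, TTNNGNAA for C/EBP factors, TTCNNNGAA for STAT factors, TGANTCA for AP-1, the interferon-stimulated response element and TATAAA for the TATA box.
LCN2, chr9:128149203-128149502, plus strand: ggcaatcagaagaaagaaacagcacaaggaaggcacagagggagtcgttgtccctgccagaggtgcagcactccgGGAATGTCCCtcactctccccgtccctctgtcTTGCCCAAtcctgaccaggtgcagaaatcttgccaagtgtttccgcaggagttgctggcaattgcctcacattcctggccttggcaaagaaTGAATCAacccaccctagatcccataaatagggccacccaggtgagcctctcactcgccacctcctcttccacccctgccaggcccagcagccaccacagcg
CFB, chr6:31945845-31946144, plus strand: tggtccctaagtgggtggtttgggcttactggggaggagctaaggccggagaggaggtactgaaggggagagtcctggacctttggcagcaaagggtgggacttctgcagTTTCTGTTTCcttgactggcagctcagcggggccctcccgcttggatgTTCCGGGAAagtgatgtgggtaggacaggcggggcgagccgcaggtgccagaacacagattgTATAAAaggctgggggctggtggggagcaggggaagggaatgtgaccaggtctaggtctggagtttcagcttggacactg
The LCN2 window held 1 match each to the NF-kB consensus, at position -175 from the start site, to the C/EBP motif, at -143, and to the AP-1 motif, at -52. The CFB window held 1 match each to the STAT motif, at -92, to the interferon-stimulated response element, at -140, and to the TATA box, at -30. None of these matches overlapped another. C1R had 2 windows, with 1 and 2 matches to the C/EBP motif and 1 STAT match in the first. Among all 35116 promoters of that table, 5.91% held the NF-kB consensus, 36.8% the C/EBP motif, 7.66% the STAT motif, 7.71% the AP-1 motif, 3.57% the interferon element and 11.5% the TATA box. A match is a description of letters and not a site.

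Genes with the most similar pattern were found over the 4 group means, by the root mean square difference of log2(FPKM + 1) centred on each gene. Nearest to LCN2 were the retinol carrier receptor gene STRA6, at a difference of 0.11, and the gelatinase gene MMP2, at 0.13. STRA6 stood at 2.35 FPKM with the EZH2 shRNA against 5.74 FPKM with the scramble shRNA, and MMP2 at 3.62 against 11.5 FPKM. Nearest to the merged SAA row was ZC3H12A, which encodes an RNase that degrades inflammatory transcripts, at 0.33, with 27.4 FPKM with the EZH2 shRNA against 47.3 FPKM with the scramble shRNA. It had 14.1 FPKM with the label ZRANB1 siRNA against 1.81 FPKM with the scramble siRNA. For SAA1 the nearest were the small nucleolar RNA gene SNORA15, at 0.31, and the merged SAA row, at 0.53. FPKM of such short RNAs is unstable. C3 was nearest to C15orf48, at 0.18, followed by IL6 at 0.42 and the chemokine gene CXCL1 at 0.45. CFB was nearest to STXBP2, at 0.044, C1R to LAPTM5, at 0.019, and C1S to MST1R, at 0.023. The likeness is a description over 4 means, and rows of small differences have many near neighbours.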

How the data were processed

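RNA of LM2 cells was sequenced in 4 groups of 3 libraries. The authors deposited 1 table of FPKM values; the submitters' processing notes name Cufflinks 2.2.1, Cuffdiff 2.2.1, TopHat2 2.1.1, SAMtools and hg19. For options, annotation, strand setting and scaling, the sources used here give nothing. For 440 repeated symbols the highest-mean row was used, and symbols inside merged row names were matched by name part. The 11929 genes averaging 1 FPKM or more were tested on the scale of log2(FPKM + 1) with limma 3.58.1 in R 4.3.3, 1 mean per group, 8 residual degrees of freedom, a variance trend and Benjamini-Hochberg adjustment over genes at 0.05. The steps were tested on simulated data. Names and neighbours came from GRCh38.p14, another build than the table's, and no coordinates of the table are given.

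The genes, the lists and the naming rule were chosen with earlier results of these data known. The rule named the 8 genes, up to 4 called and 2 uncalled genes per list and comparison by size and level, lists of up to 5 tested genes, called neighbours and 3 nearest genes per row; other genes were named after their values were seen. Other settings tried were the compared groups alone, no filter, a pseudocount of 0.1, a filter at 5 FPKM, no trend and 1 scaling factor per group. Summed rows, an adjusted p below 0.01 and leaving out single values were also tried. The 13 other settings counted for a single gene leave out the cut at 0.01. Text order held in 100.0% of rows with 3 different values in each group, so leaving out a value for counts followed a random order within gene and group. Depth is unknown, and 3 values per group limit the precision. Figures used matplotlib 3.10.9 in Python 3.11.15. Of the 46 tested list genes, 1 is counted but not reported here by name.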

Additional observations from a re-analysis of the deposited data

How the results depend on the processing

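Of the 24 log2 differences of the 7 rows and the SAA sum, all stayed within 1 SD of the libraries with 1 scaling factor per group and when any single value was left out, as did 21 with rows of a symbol summed, and none changed sign. With a pseudocount of 0.1, 15 moved by more than 1 SD. In the label ZRANB1 siRNA against the scramble siRNA they became 3.95 for SAA1, 3.02 for the merged SAA row, 7.43 for C3, 2.86 for CFB, 0.93 for C1R, 2.03 for C1S and 3.02 for LCN2. In the scramble siRNA against the scramble shRNA they became -6.52, -5.59, -8.86, -4.19, -1.69, -3.46 and -5.51 in the same order, and in the EZH2 shRNA against the scramble shRNA LCN2 became -1.64. The count of list genes called with the EZH2 shRNA, 14, was 9 with a filter at 5 FPKM, 5 with the compared groups alone, 6 at an adjusted p below 0.01, and 9 to 13 with single values left out. Neighbours called with the EZH2 shRNA, 1, were 2 with no filter. Those called with the label ZRANB1 siRNA, 5, were 2 at an adjusted p below 0.01 and 3 to 4 with single values left out. The other totals stayed within 1.5 times. Counts in 1 direction moved more: the 5 list genes that rose with the EZH2 shRNA were 1 with the compared groups alone and 1 to 5 with single values left out, the 2 that fell with the label ZRANB1 siRNA were 4 with no filter and 0 at an adjusted p below 0.01, and the 10 called higher between the controls were 5 at an adjusted p below 0.01, 4 with a filter at 5 FPKM and 6 to 8 with single values left out. The cause was not tested. Of 64 calls of named genes, 46 held at an adjusted p below 0.05 in every other setting and 18 did not. The cut at 0.01 was not among the settings of this count. No paired analysis was possible because the values of each row stand in text order, so that a column number names no library. The depth behind each value is unknown.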
